A study of Mus musculus with 6 samples.

Results

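The genes examined were Dnmt1, Dnmt3a, Dnmt3b, Dnmt3l and Setd2, each taken as 1 fixed mm9 interval that follows the body of the gene. The intervals were Dnmt1 at chr9:20712001-20757000, Dnmt3a at chr12:3810001-3912000, Dnmt3b at chr2:153477001-153511000, Dnmt3l at chr10:77505001-77526000 and Setd2 at chr9:110436001-110519000. They held 793, 1258, 382, 292 and 609 CpG sites, together 3334 of the 20782144 sites in the deposited table. These are the genes that the lines had lost or regained, with Dnmt3l as the member that no label names as altered. The reads over them were therefore used both to look at the state of each locus and to measure methylation of the gene bodies.

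CpG methylation had been measured by whole-genome bisulfite sequencing, in which a cytosine that stays a C counts as methylated, in 3 lines of mouse embryonic stem cells. All 3 lines were Dnmt1,3a,3b-triple-null cells (TKO; Tsumura et al.). The first line expressed DNMT3A2, the second DNMT3B1, and the third DNMT3B1 with SETD2 knocked out (labelled TKO, SETD2-KO). The labels list 2 sequencing runs per line. The values are given per line and not per run, so each line was taken as 1 library without a replicate. Every interval below therefore covers counting error or variation between clusters of CpGs, not variation between cultures. The lines carried 200364080, 188661576 and 200947834 reads at CpG sites, and the knockout file listed only sites with at least 10 reads. Cells were grown on feeder cells or on gelatine. The sources used here do not give how the enzymes were introduced, whether a line is 1 clone or how SETD2 was removed.

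DNMT1 copies methylation onto the new strand after replication, whereas DNMT3A and DNMT3B methylate unmodified CpGs. DNMT3L has no catalytic activity and stimulates DNMT3A and DNMT3B, and DNMT3A2 is a short isoform made from a promoter inside Dnmt3a. SETD2 trimethylates a lysine of the histone H3 tail in the bodies of transcribed genes, a mark that the PWWP domain of DNMT3B binds, so that active genes are known targets of DNMT3B in embryonic stem cells.

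Most of the promoters of these genes are dense in CpG, and 3 of their RefSeq upstream windows are shown because they span the range from CpG-rich to CpG-poor. Each is the 250 bases before a gene start, 5′ to 3′ on the strand of the gene, with every CG in capitals. They lie at chr12:3891494-3891743 for the start farther into Dnmt3a (inside the interval), chr9:110532347-110532596 for Setd2 and chr10:78042037-78042286 for Dnmt3l, all on the plus strand of GRCm38.p6.
Dnmt3a, inner start: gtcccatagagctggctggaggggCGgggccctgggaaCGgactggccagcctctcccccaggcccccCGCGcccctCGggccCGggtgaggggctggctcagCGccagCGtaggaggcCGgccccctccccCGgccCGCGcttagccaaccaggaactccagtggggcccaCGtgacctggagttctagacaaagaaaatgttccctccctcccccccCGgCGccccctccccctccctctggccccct
Setd2: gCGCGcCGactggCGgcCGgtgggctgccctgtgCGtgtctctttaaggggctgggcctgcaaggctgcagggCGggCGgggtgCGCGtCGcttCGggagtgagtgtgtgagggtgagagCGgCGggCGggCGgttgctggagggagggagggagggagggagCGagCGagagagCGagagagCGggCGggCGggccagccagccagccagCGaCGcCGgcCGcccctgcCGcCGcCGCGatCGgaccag
Dnmt3l: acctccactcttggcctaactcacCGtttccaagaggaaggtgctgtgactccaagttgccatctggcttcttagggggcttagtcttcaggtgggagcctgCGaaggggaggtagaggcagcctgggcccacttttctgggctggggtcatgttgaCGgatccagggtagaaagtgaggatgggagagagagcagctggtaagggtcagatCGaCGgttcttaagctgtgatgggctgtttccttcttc
These windows held 15, 31 and 5 CGs, a letter pair that reads the same on both strands. Among the 32851 RefSeq windows of this length 92.1% held at least 1, the median was 6, and 5.19% held 31 or more.

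The windows were found in the mm9 table by the spacing of their CGs, and the CpG-rich ones carried almost no methylated read, apart from the outer Dnmt3a windows in the knockout line. At the inner Dnmt3a start, 0 of 98 reads were methylated in the DNMT3A2 line, 0 of 87 in the DNMT3B1 line and 0 of 56 in the SETD2 knockout line. The exact 95% intervals reach up to 3.69%, 4.15% and 6.38%. Setd2 had 0 of 310, 0 of 146 and 0 of 184 methylated reads in the same order, with exact 95% intervals up to 1.18%, 2.49% and 1.98%. The main CpG-rich window of Dnmt1 had 0 of 374, 0 of 325 and 0 of 471. The Dnmt3b window had 0 of 206, 0 of 189 and 0 of 92. A smaller window upstream of Dnmt1, with 7 CGs, had 0 of 63, 0 of 48 and 1 of 102. The window before the first Dnmt3a start, chr12:3806730-3806979 of GRCm38.p6, had 14 of 662 methylated reads in the knockout line (2.11%, exact 95% interval 1.16% to 3.52%) and 0 of 325 and 0 of 343 with DNMT3A2 and DNMT3B1. The next window overlaps it, at chr12:3806910-3807159, and had 17 of 380 in the knockout (4.47%, 2.63% to 7.07%), 3 of 337 with DNMT3A2 and 1 of 291 with DNMT3B1. Over the genome, sites compared in all 3 lines with 40 or more CpGs within 500 bp on each side had 0.698% in the knockout. Such sites had 0.453% with DNMT3A2 and 0.249% with DNMT3B1. The CpG-poor Dnmt3l window had 2 of 77 methylated reads with DNMT3A2 and 0 of 55 with DNMT3B1, too few to separate the lines.

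Dnmt1 encodes the maintenance enzyme, and a stretch toward the 3′ end of this minus-strand gene had no reads in any line. In the DNMT3A2 line 39 consecutive CpG sites from chr9:20715415-20716953 had 0 reads. In the DNMT3B1 line the stretch was 42 sites long, from chr9:20715325-20716960, and the same 42 sites were absent from the knockout file. The 3 outer sites of that stretch held 9 reads in the DNMT3A2 line. The 10 sites on each side had a median of 14.5 reads with DNMT3A2, 11.5 with DNMT3B1 and 19 in the knockout, so coverage stopped and resumed abruptly at about the same positions in all 3 lines. The rows of the knockout file carry the authors' running numbers, which never advanced by more than the number of table sites passed. Across the 42 sites they skipped only 1 number. Stretches of 10 or more sites without reads are not rare, since they hold 8.46% of all sites with DNMT3A2, 8.66% with DNMT3B1 and 7.87% in both, and stretches not listed in the knockout hold 23%. In the DNMT3A2 line 12100 stretches were at least this long. All 3 lines are labelled as null for Dnmt1, so a deleted segment and a segment to which reads cannot be assigned cannot be told apart here. Outside it the gene was evenly covered, with medians over the interval of 13, 11 and 19 reads per site (listed sites only in the knockout).

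Dnmt3a encodes a de novo enzyme, and its 3′ part showed both a large excess of reads in the DNMT3A2 line and a stretch with almost no reads in the others. Sites with excess reads were taken as those with at least 100 reads and at least 10 times as many as in a line that expresses the other enzyme (DNMT3B1 for the DNMT3A2 line, DNMT3A2 for the other lines), a rule set after the coverage had been seen. In the DNMT3A2 line 70 sites of Dnmt3a met it, out of 89 such sites in the genome (0.000428% of all sites). They lay between chr12:3895655-3907719 and had 158 to 2835 reads, with a median of 2067, against a chromosome median of 8 among sites with reads. At the same 70 sites the DNMT3B1 line had a median of 11 reads and a highest value of 28, a separation that the rule itself requires. The 70 sites held 90.8% of all reads of the gene in the DNMT3A2 line.

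The excess came in short blocks. The 70 sites of Dnmt3a formed 16 blocks of adjacent CpGs, the longest 131 bp from first to last site, and the 123 sites between the blocks had a median of 10 reads and at most 39. Block medians ran from 168 reads at chr12:3897567-3897605 to 2813 at chr12:3899876-3900006. No site of Dnmt3a upstream of the first block met the rule, which leaves the part before and around the inner gene start at ordinary coverage. Gene models of mm9 were not used here, so the blocks were not assigned to exons.

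The gap lay among these blocks. The DNMT3B1 line had 6 reads over the 13 sites of chr12:3902401-3902803, and the knockout file listed none of the 13 (its running numbers skipped 3). Stretches of 10 or more sites with at most 2 reads each, as here, hold 10.8% of all sites in the DNMT3B1 line. The DNMT3A2 line had 15817 reads at 10 of the 13 sites and none at the other 3. The site at position 3902714 shows this most plainly, with 2423 reads in the DNMT3A2 line, 1 read in the DNMT3B1 line and no entry for the knockout. In the DNMT3A2 line every read in this stretch thus fell at sites that met the excess rule. Flanking sites had medians of 6.5, 5 and 11.5 reads in the 3 lines.

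**Figure D1:**
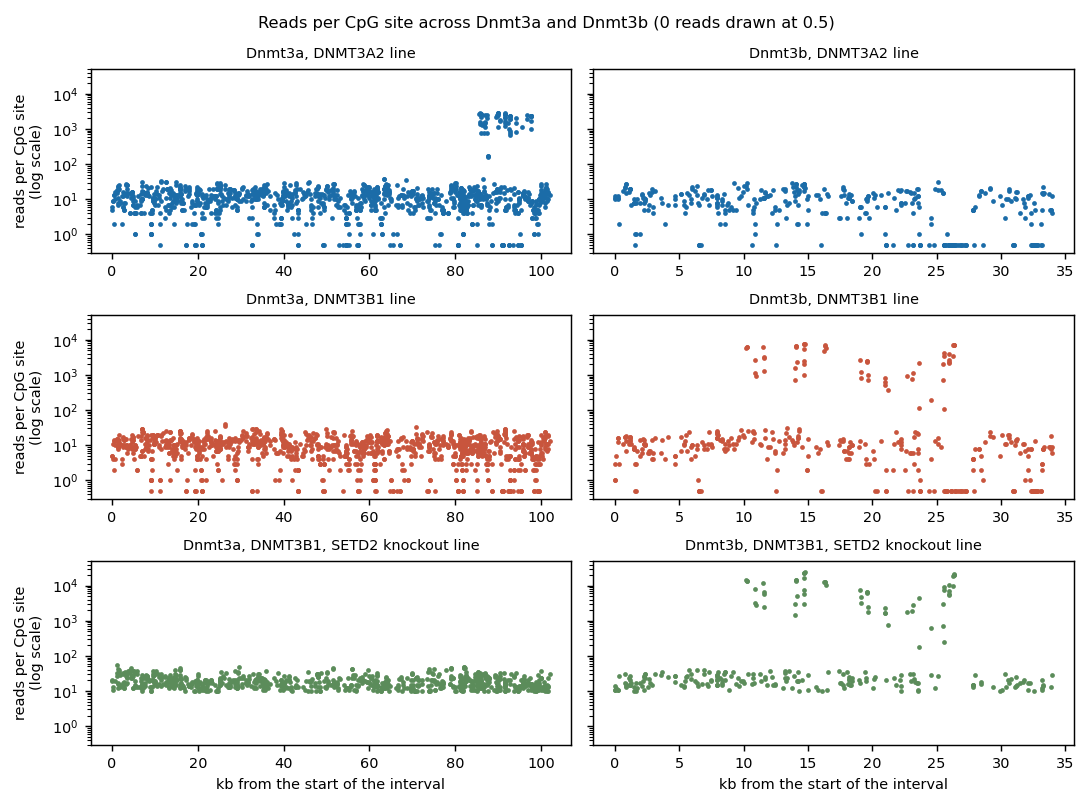
Reads per CpG site (log scale) by distance in kb from the start of the interval, for Dnmt3a (left) and Dnmt3b (right), with 1 row of panels per line; each point is 1 site, 0 reads are drawn at 0.5 and knockout sites that are not listed are not drawn. The 70 sites with excess reads in Dnmt3a stand out with DNMT3A2, and the 59 in Dnmt3b in the 2 lines that express DNMT3B1.

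Dnmt3b encodes the other de novo enzyme, and here the lines changed places. In the DNMT3B1 line 59 sites of the interval met the excess rule, out of 77 in the genome (0.000371% of all sites), with 108 to 7762 reads and a median of 2486. The knockout line, which expresses the same enzyme, had 176 to 24180 reads at those 59 sites, with a median of 6491, and the rule called the same 59 sites in it (265 in the genome, 0.00128%). The DNMT3A2 line had a median of 9 reads and a highest value of 30 there. Together with 9 further sites just past the end of the interval, at chr2:153512000-153512160, the excess formed 18 blocks over 24949 bp, and the 219 sites between them had at most 30 reads with DNMT3B1 and 38 in the knockout. In none of the 3 lines did Dnmt1, Dnmt3l or Setd2 hold a site that met the rule.

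The 2 lines that express DNMT3B1 had much the same pattern of reads from site to site. Across the 68 sites, reads in the knockout were 2.51 times those in the DNMT3B1 line, against 1.5 times at all compared sites. The highest block was the same in both, at chr2:153503269-153503338, with medians of 7044 reads with DNMT3B1 and 20198 in the knockout.

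Dnmt3b also held a stretch that had almost no reads apart from the sites with excess. The DNMT3A2 line had 1 read over 30 consecutive sites from chr2:153502553-153504281, and no reads at the last 22 of them, where stretches of 10 or more sites with at most 2 reads hold 10.4% of all sites in that line. The DNMT3B1 line had 50689 reads at 12 of the 30 sites and the knockout 136617 reads at 12, all at sites with more than 100 reads. At the other 18 sites the DNMT3A2 line had 1 read, the DNMT3B1 line 0, and the knockout no entry, so without the excess the gap was in all 3 lines. Position 153503338 had 0 reads with DNMT3A2, 7096 with DNMT3B1 and 20637 in the knockout. The last 10 sites, chr2:153503431-153504281, were without reads in all 3 lines, and the running numbers of the knockout file skipped none over them. A second stretch of 10 sites without reads in the DNMT3B1 line, chr2:153509649-153510126, had 2 reads in the DNMT3A2 line and does not separate the lines.

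**Figure D2:**
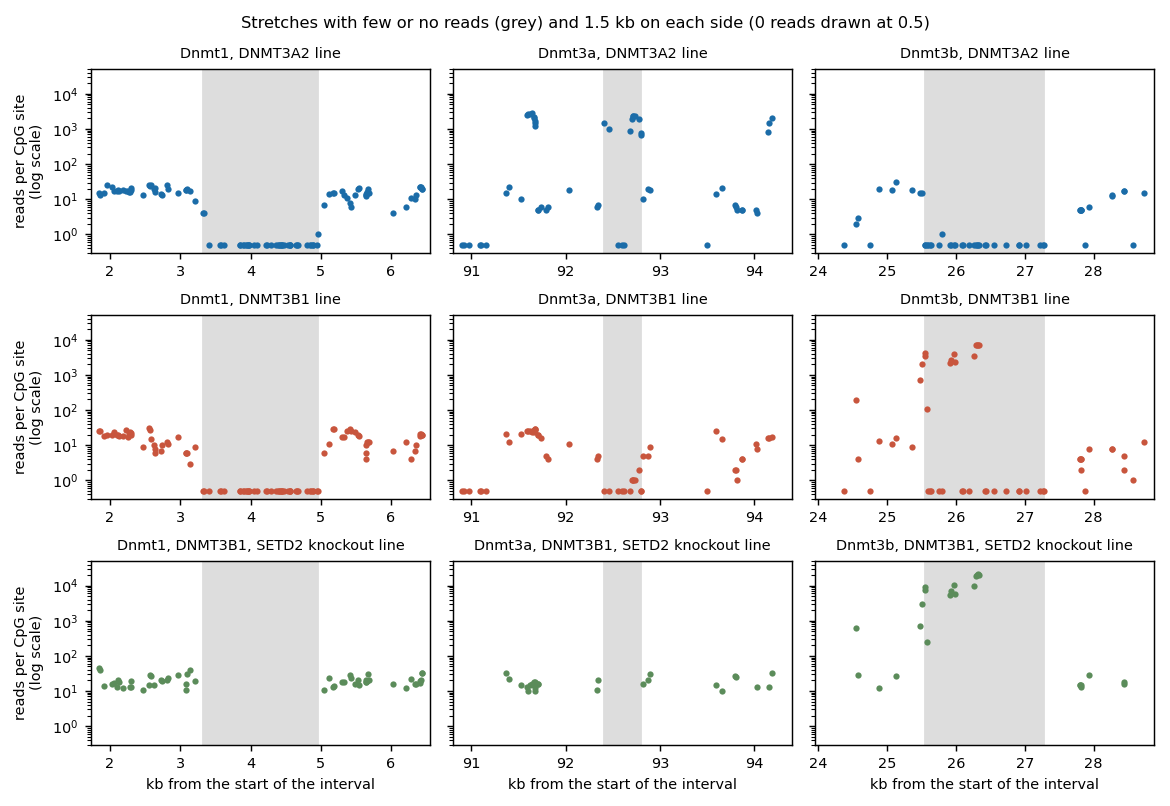
Reads per CpG site (log scale) in the stretches of Dnmt1, Dnmt3a and Dnmt3b described above (grey) and 1.5 kb on each side, with 1 row of panels per line; 0 reads are drawn at 0.5, and sites that the knockout file does not list are not drawn. The grey stretch of Dnmt1 has 9 reads at 3 sites with DNMT3A2, none with DNMT3B1 and no listed site in the knockout. In Dnmt3a and Dnmt3b the lines that express the matching enzyme have sites with more than 100 reads inside the grey stretch.

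Dnmt3l and Setd2 had no such gap. Neither gene had 10 consecutive sites without reads in the DNMT3A2 or the DNMT3B1 line, and their medians were 10 and 9 reads for Dnmt3l and 9 and 7 for Setd2. Setd2 is of interest in the knockout line, where 353 of its 609 sites were listed (58.0%, against 46.8% of all sites of chromosome 9). The longest distance without a listed site was 1894 bp. Where the running numbers skipped none between neighbouring listed sites, at most 6 sites lay between them. In Setd2 no 10 consecutive sites were unlisted. No deletion of 10 or more CpG sites was thus visible in Setd2, and a smaller change would not be detectable from these counts. The Dnmt3l interval had 1 stretch of 13 sites that the knockout file did not list, at chr10:77523451-77524465, where the running numbers skipped 7 and the other lines had 46 and 69 reads.

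Coverage windows of 10 sites gave the same picture with a comparison fixed for all genes. In Dnmt3a 16 of 126 windows had at least 10 times more scaled reads with DNMT3A2 than with DNMT3B1, against 0.0344% of all windows. In Dnmt3b 14 of 39 windows had at least 10 times more with DNMT3B1, against 0.0246%. At 2-fold, where 5.22% of all windows were higher with DNMT3A2 and 4.87% with DNMT3B1, Dnmt1 had 4 and 0 of 76 windows, Dnmt3l 0 and 1 of 29 and Setd2 4 and 2 of 61, shares near those of the genome.

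The CpGs with excess reads were methylated in every line that had them, at levels below those of the rest of the gene. In Dnmt3a the DNMT3A2 line had 4594 methylated of 130295 reads at the 70 sites, a level of 3.53% (exact 95% interval 3.43% to 3.63%). The rest of the gene had 8.20% in that line (7.73% to 8.69%), and the sites between the blocks alone 7.09% (5.70% to 8.71%). In Dnmt3b the DNMT3B1 line had 1.86% at the 59 sites (1.80% to 1.92%), 3.99% in the rest of the gene (3.28% to 4.80%) and 6.93% between the blocks (5.49% to 8.60%). The knockout had 3.73% (3.67% to 3.78%), 6.85% (6.10% to 7.66%) and 9.54% (8.18% to 11.0%) in the same order. In each of these lines the interval at the sites with excess reads overlapped neither of the others. Reads amplified from 1 molecule would count more than once, and the intervals do not cover that.

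The same positions were also compared with their neighbours in the lines without the excess. At the Dnmt3b positions with 5 to 45 reads, the DNMT3A2 line had 7.73% (5.70% to 10.2%) against 9.31% (7.65% to 11.2%) between them. At the Dnmt3a positions the DNMT3B1 line had 2.64% (1.66% to 3.97%) against 3.43% (2.37% to 4.78%), with overlapping intervals in both cases. The knockout line had 9.44% (7.59% to 11.6%) at the Dnmt3a positions against 6.55% (5.34% to 7.93%) between them, and these intervals also overlapped.

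Levels differed from block to block and site to site by more than the exact intervals. Those intervals do not cover reads amplified from 1 molecule, so variation beyond counting error was not tested. With DNMT3A2, the 16 blocks of Dnmt3a ranged from 1.57% (1.32% to 1.86%) at chr12:3895655-3895740 to 5.46% (5.08% to 5.86%) at chr12:3902677-3902803. The highest single site, position 3902714, had 202 methylated of 2423 reads (8.34%). With DNMT3B1, the site at position 153491103 of Dnmt3b had 303 methylated of 2260 reads (13.4%), and in the knockout 937 of 5013 (18.7%). It was the highest of the Dnmt3b sites in both lines, while position 153512045, past the interval, had 0.355% and 1.05%.

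The sites with excess reads in Dnmt3b were methylated more in the knockout than in the DNMT3B1 line. Of the 68 sites, 64 were higher in the knockout and 3 lower. Pooled levels were 1.99% (1.93% to 2.05%) with DNMT3B1 and 3.80% (3.75% to 3.85%) in the knockout, a ratio of 1.91, against a ratio of 2.14 over the compared sites of the genome. Site levels ranked alike in both lines, with a Spearman rho of 0.91 over 68 sites that share reads within blocks, given as a description.

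**Figure D3:**
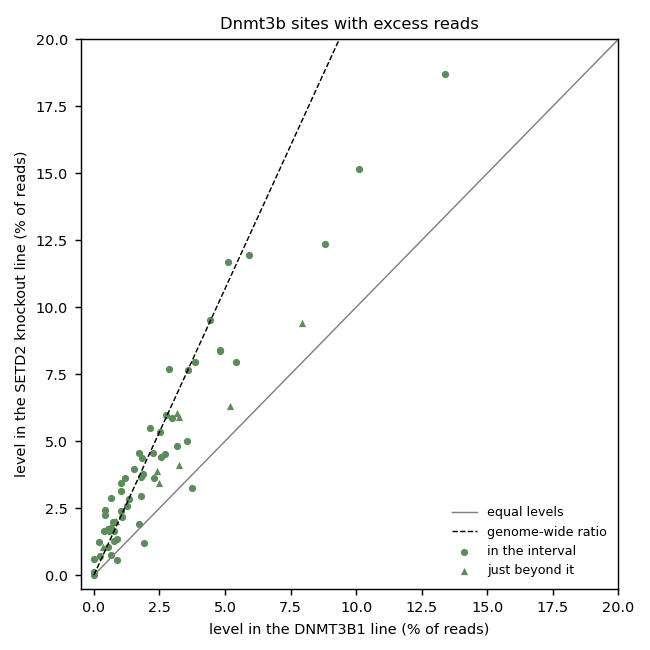
Methylation level of each Dnmt3b site with excess reads in the DNMT3B1 line (x axis, % of reads) and in the SETD2 knockout line (y axis, % of reads); circles are the 59 sites in the interval, triangles the 9 just beyond it, the solid line marks equal levels and the dashed line the genome-wide ratio of 2.14. Most sites lie above the solid line, 64 of 68.

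For the gene bodies themselves, sites with 5 or more reads in all 3 lines and at most 45, 40 and 80 reads (5 times each line's median) were compared, which leaves out the excess. Over the genome those sites had levels of 7.28% with DNMT3A2, 2.75% with DNMT3B1 and 5.87% in the knockout. Setd2 had 9.07% with DNMT3A2 (exact 95% interval 8.04% to 10.2%), 6.57% with DNMT3B1 (5.65% to 7.59%) and 7.11% in the knockout (6.33% to 7.95%). Dnmt1 had 7.38% (6.83% to 7.96%), 4.86% (4.4% to 5.35%) and 5.98% (5.56% to 6.43%). Setd2 lay above the genome by more than its interval in all 3 lines, and Dnmt1 in the DNMT3B1 line. The genome includes CpG-dense sites with low levels, of which Setd2 has few. Among sites with fewer than 20 CpGs within 500 bp on each side, the genome had 8.56%, 3.26% and 6.95%. Setd2 there had 9.34% (8.26% to 10.5%), 6.52% (5.57% to 7.57%) and 7.09% (6.29% to 7.95%), so it stayed above only with DNMT3B1. Dnmt1 also stayed above with DNMT3B1, at 4.87% (4.21% to 5.60%).

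Dnmt3b also lay above the genome in all 3 lines, and Dnmt3a with DNMT3A2. The interval of Dnmt3a included the level of the genome with DNMT3B1 and in the knockout. At sites with fewer than 20 CpGs, Dnmt3b stayed above the genome only with DNMT3B1, at 4.46% (3.54% to 5.52%) against 3.26%. The interval of Dnmt3a with DNMT3A2 (8.53% to 9.83%) included the genome there, at 8.56%. Dnmt3a had 8.38% with DNMT3A2 (7.81% to 8.97%), 2.96% with DNMT3B1 (2.61% to 3.35%) and 6.17% in the knockout (5.76% to 6.59%). Dnmt3b had 8.84% (7.62% to 10.2%), 4.48% (3.62% to 5.49%) and 7.30% (6.42% to 8.27%). Dnmt3l was the lowest of the 5 genes in every line, with 2.10% (1.51% to 2.85%), 0.697% (0.372% to 1.19%) and 3.08% (2.46% to 3.81%). The order in the DNMT3B1 line was Setd2, Dnmt1, Dnmt3b, Dnmt3a and Dnmt3l. The intervals of Dnmt1 and Dnmt3b overlapped, and those of Setd2 and Dnmt1 did not. These intervals take neighbouring CpGs as independent although they share reads, so they are too narrow, and the order was not tested.

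**Figure D4:**
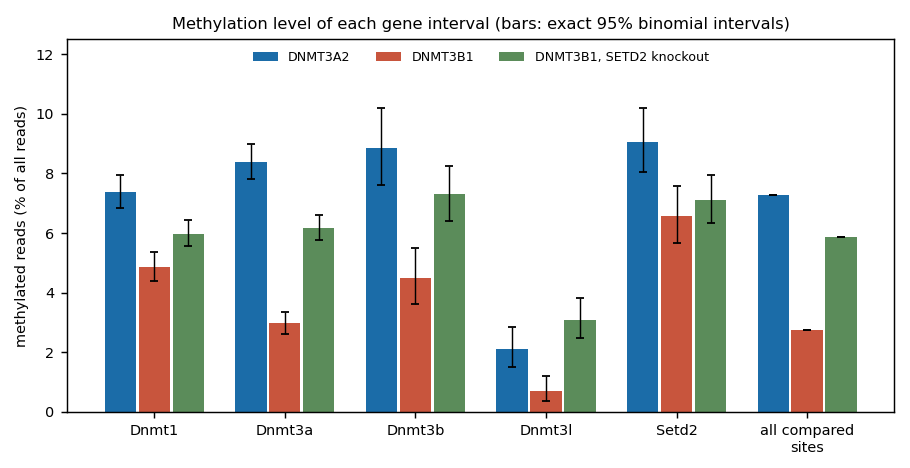
Methylation level (% of reads) of each gene interval and of all compared sites, in the 3 lines; bars are levels pooled over sites and the error bars exact 95% binomial intervals. Setd2 (6.57%), Dnmt1 (4.86%) and Dnmt3b (4.48%) are above the genome (2.75%) with DNMT3B1, and Dnmt3l is lowest in every line.

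To allow for the different overall activity of the lines, the log2 ratio of the levels of a gene was taken relative to the log2 ratio over all sites, so that 0 is the ratio of the genome. DNMT3B1 over DNMT3A2 gave 0.84 for Setd2 (95% interval 0.28 to 1.40) and 0.78 for Dnmt1 (0.48 to 1.08), so that both genes had relatively more methylation with DNMT3B1. Dnmt3b gave 0.27 (-0.34 to 0.87), Dnmt3l 0.40 (-0.48 to 1.28) and Dnmt3a -0.17 (-0.52 to 0.17), and these intervals include the ratio of the genome. Each ratio uses all sites that passed in that pair of lines. For Dnmt3a and Dnmt3b it turned on the coverage maximum: with the sites of excess reads kept in, Dnmt3a gave 1.04 (0.70 to 1.39) and Dnmt3b -0.75 (-1.30 to -0.21).

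Setd2 and Dnmt1 had relatively less methylation in the knockout than with DNMT3B1. The SETD2 knockout over DNMT3B1 gave -0.83 for Setd2 (-1.47 to -0.20) and -0.83 for Dnmt1 (-1.19 to -0.46). Dnmt3l went the other way with 1.16 (0.27 to 2.05), on 159 sites where 0.704% of reads were methylated with DNMT3B1, and at a minimum of 10 reads per site its interval included 0 (-0.20 to 2.54). Dnmt3b gave -0.46 (-1.09 to 0.17) and Dnmt3a 0.04 (-0.28 to 0.35). The knockout over DNMT3A2 gave -0.14 for Setd2 (-0.57 to 0.29) and -0.05 for Dnmt1 (-0.31 to 0.22), and none of the 5 genes had an interval that excluded 0. The comparisons share lines, so they are not independent of each other.

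**Figure D5:**
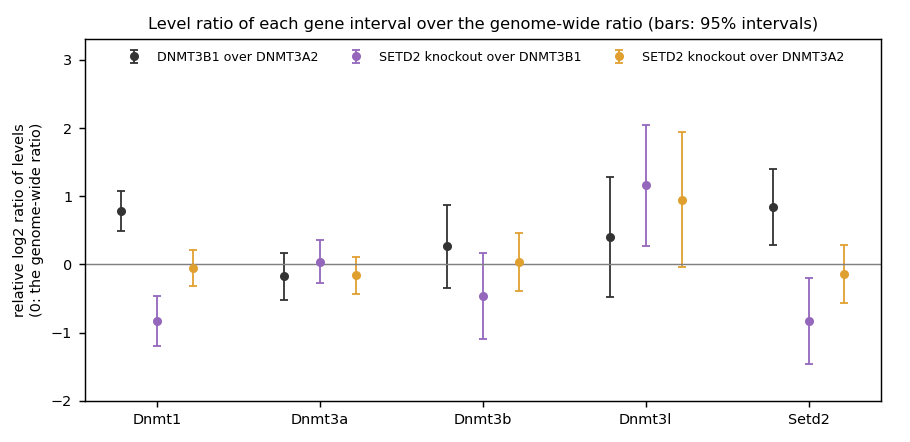
Relative log2 ratio of the methylation level of each gene interval for the 3 pairs of lines (0 on the y axis is the genome-wide ratio); points are estimates and bars 95% intervals from clusters of CpGs within 500 bp. Setd2 and Dnmt1 lie above 0 for DNMT3B1 over DNMT3A2 and below 0 for the SETD2 knockout over DNMT3B1.

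Within the genes the difference was not even. For DNMT3B1 over DNMT3A2, 28 tiles of 10 kb fell in the 5 genes, of which 3 of 8 in Setd2 and 1 of 5 in Dnmt1 were at least 2-fold higher with an interval above 0, against 6.07% of all tiles. In Dnmt3a 1 of 10 was lower, against 5.36%. The 3 higher tiles of Setd2 adjoined each other. With a minimum of 10 reads per site, 2 tiles of the 5 genes were higher and 2 lower. The largest ratio was in the tile at chr9:110450001-110460000, with 68 of 725 reads methylated with DNMT3B1 (9.38%) and 63 of 851 with DNMT3A2 (7.40%), a relative log2 ratio of 1.73 (0.20 to 3.25). The next tiles gave 1.01 and 1.34. In Dnmt1 the tile at chr9:20720001-20730000 gave 1.24 (0.79 to 1.69), with 6.39% and 7.08% methylated. The lower tile of Dnmt3a was its first, chr12:3810001-3820000, with 2.36% and 13.1% and a relative log2 ratio of -1.09 (-1.92 to -0.26).

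For the SETD2 knockout over DNMT3B1, 2 of 7 tiles of Setd2 were lower, against 4.06% of all tiles, and 1 of 5 tiles of Dnmt1 was higher, against 6.41%. The Setd2 tile at chr9:110470001-110480000 had 7.25% in the knockout and 9.66% with DNMT3B1, a relative log2 ratio of -1.51 (-2.72 to -0.30), and the last tile gave -1.05. The higher Dnmt1 tile was chr9:20750001-20760000, which runs past the interval over the 5′ end of the gene, with 59 of 2575 reads in the knockout (2.29%) and 8 of 1639 with DNMT3B1 (0.488%). For the knockout over DNMT3A2 no tile of the 5 genes was called in either direction, where 5.16% of all tiles were higher and 2.81% lower.

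Tile levels along each gene are given from lowest to highest, and variation along a gene was not tested. The intervals of these extremes overlapped in some cases, as in Setd2 with DNMT3A2 (5.02% to 10.2% and 7.72% to 17.1%). In other cases they did not, as in Dnmt3a with DNMT3A2 (3.03% to 5.79% and 11.0% to 15.1%). Among tiles of the interval's own sites compared in all 3 lines, Setd2 ran from 7.31% to 11.8% with DNMT3A2 and from 2.47% to 11.3% with DNMT3B1, where the tile at chr9:110450001-110460000 was highest (61 of 542 reads). In the knockout that tile was also the highest of the gene, at 9.75%, and the lowest was the last at 5.47%. Dnmt1 was lowest in its 5′ tile in all 3 lines, with 3.77%, 0.738% and 3.13%, and its highest tiles had 11.2%, 6.37% and 6.97%. Dnmt3a ran from 4.25% to 13.0% with DNMT3A2, from 1.47% to 4.35% with DNMT3B1 and from 2.30% to 8.98% in the knockout. Dnmt3b was lowest in its first tile in every line, with 4.65%, 0 of 366 reads (exact interval up to 1.00%) and 4.85%. Its highest tiles had 10.5%, 6.85% and 8.22%. The 3 tiles of Dnmt3l stayed between 1.30% and 3.59%, 0.140% and 2.45%, and 1.69% and 3.95%.

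Levels were lowest at the most CpG-dense sites of Dnmt1 and Dnmt3a. Sites with 40 or more CpGs within 500 bp on each side had 0 methylated of 149, 0 of 121 and 0 of 202 reads in Dnmt1. The exact intervals reach up to 2.45% with DNMT3A2, 3.00% with DNMT3B1 and 1.81% in the knockout. In Dnmt3a such sites had 1 of 255, 1 of 238 and 6 of 323. Sites of Dnmt3a with fewer than 20 CpGs had 9.16% with DNMT3A2, 3.12% with DNMT3B1 and 6.52% in the knockout. In Dnmt3l, sites of 20 to 39 CpGs had 6 of 640 methylated reads with DNMT3A2, 0 of 682 with DNMT3B1 and 8 of 999 in the knockout, whereas its sparser sites had 2.69%, 1.10% and 4.43%. Setd2 and Dnmt3b did not fall with DNMT3B1 between sites with fewer than 20 CpGs and those with 20 to 39. The level of Setd2 was 6.52% (5.57% to 7.57%) at sites with fewer than 20 CpGs and 8.39% (4.54% to 13.9%) at 13 sites with 20 to 39, and in the knockout 7.09% and 8.74%. Dnmt3b had 4.46% and 4.72% with DNMT3B1, also with 13 sites in the denser group. With DNMT3A2 the denser group was lower, at 5.63% against 9.34% in Setd2 and 5.61% against 9.20% in Dnmt3b. Dnmt3b in the knockout had 4.38% against 7.55%, and the intervals overlapped in each case. At 40 or more CpGs Setd2 had 2 sites, with 0 of 20, 0 of 22 and 0 of 35 reads methylated, and Dnmt3b had no compared site. In Dnmt1 the DNMT3B1 level was much the same at sites with fewer than 20 CpGs (4.87%, 4.21% to 5.60%) and with 20 to 39 (5.0%, 4.35% to 5.70%).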

How the data were processed

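The members and lists were chosen with earlier results of these data known. The deposited table gives counts per CpG site, per the file headers: all reads and methylated reads of the DNMT3A2 and DNMT3B1 lines. The deposited knockout file gives counts and, per the file headers, their fraction, only at sites with at least 10 reads; its 2 copies were identical and used once. The build is mm9, per the submitters' processing notes. Aligner, caller and duplicate handling: not given in the sources used here.

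Levels are methylated over all reads, pooled over sites with at least 5 reads and at most 5 times the line's median, with Clopper-Pearson 95% intervals. They cover counting error only. Relative log2 ratios have intervals from a ratio estimator over 500 bp clusters. Tiles spanned 10 kb, needed 20 sites and were called at 2-fold with an interval excluding 0. Tiles without a methylated read were set to a floor of 3 reads. Runs were 10 or more adjacent sites without reads, and coverage windows were 10 adjacent sites with at least 20 reads. The rule named the 5 genes, their runs and their tiles of highest and lowest level; other sites and tiles were chosen after their values were seen. The wider gene list was left out, since mm9 gene models were not used here. RefSeq windows were placed by CG spacing where at least 90% of at least 5 CGs matched 1 place, which held for 8 of 11 windows. Scripts were tested on simulated data. The tools were Python 3.11.15 with scipy 1.17.1, pandas 2.3.3, numpy 2.4.6 and matplotlib 3.10.9. Alternatives were other coverage limits, tile sizes, run and window lengths, CpG density, background subtraction and, chosen after seeing the data, other excess rules and runs of at most 2 reads.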

Additional observations from a re-analysis of the deposited data

Results flagged for a closer look

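Just past the end of the Dnmt3b interval, 9 CpG sites at chr2:153512000-153512160 had an excess of reads in both lines that express DNMT3B1. They had a median of 4756 reads with DNMT3B1 and 12322 in the knockout, against at most 12 in the DNMT3A2 line. Their levels were 2.64% with DNMT3B1 and 4.16% in the knockout. They are flagged because they lie outside the interval that was set for the gene.

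Outside Dnmt3a and Dnmt3b, 19 sites of the DNMT3A2 line met the excess rule, the highest with 2242 reads, and 9 sites of the DNMT3B1 line did, the highest with 284 reads. They are flagged because no label names an altered gene there. In the knockout 197 sites outside Dnmt3b and its flank met the rule, the highest with 22266 reads. What these reads come from was not tested.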

How the results depend on the processing

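Of the relative log2 ratios, those of Setd2 and Dnmt1 for DNMT3B1 over DNMT3A2 and for the knockout over DNMT3B1 kept direction and call under all 7 alternatives, at 0.72 to 0.95, 0.76 to 0.93, -1.22 to -0.60 and -0.96 to -0.71. Setd2 for the knockout over DNMT3A2 also kept its direction and stayed uncalled. With no coverage maximum, which keeps the sites with excess reads, DNMT3B1 over DNMT3A2 turned to 1.04 for Dnmt3a and -0.75 for Dnmt3b. The knockout over DNMT3A2 turned to 1.09 for Dnmt3a, -0.84 for Dnmt3b and 0.0047 for Dnmt1, and became called at 1.00 for Dnmt3l. The knockout over DNMT3B1 was -0.011 for Dnmt3a and became called at -0.16 for Dnmt3b. With a maximum of 2 times the median, Dnmt3a became called at -0.42 for DNMT3B1 over DNMT3A2 and -0.33 for the knockout over DNMT3A2. Dnmt3b then turned to -0.56 and -0.16 in those comparisons and to 0.056 for the knockout over DNMT3B1. Without the coverage windows past 2-fold, Dnmt3b turned to -0.39, -0.12 and 0.45 in the same order, and Dnmt3a to -0.023 for the knockout over DNMT3B1. With a minimum of 1 read, the knockout over DNMT3A2 was -0.024 for Dnmt3b and became called at 0.99 for Dnmt3l. With a minimum of 10 reads it was -0.036 for Dnmt3b and 0.059 for Dnmt1, DNMT3B1 over DNMT3A2 was -0.44 for Dnmt3l, and the knockout over DNMT3B1 at Dnmt3l was no longer called at 1.17. Apart from the coverage maximum, which by construction admits the excess reads, the cause was not tested.

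With tiles of 5 kb, 6 of 55 tiles of the 5 genes were higher and 3 lower for DNMT3B1 over DNMT3A2 (7.65% and 5.98% of all tiles), 2 of 53 higher and 6 lower for the knockout over DNMT3B1 (6.39% and 6.16%), and 0 of 53 higher and 2 lower for the knockout over DNMT3A2 (7.09% and 5.1%). With a minimum of 10 reads, 2 of 19 were higher and 2 lower for DNMT3B1 over DNMT3A2 (5.28% and 6.93%). Runs of 5 or more sites numbered 10 with DNMT3A2, 11 with DNMT3B1 and 58 (not listed) in the knockout, against 2, 3 and 8 runs of 10 or more. Runs of 10 or more hold 8.46%, 8.66% and 23% of all sites. The share was not computed for runs of 5 or more, so their counts cannot be set against the genome. Windows of 5 sites past 2-fold (DNMT3A2 higher, then DNMT3B1 higher) numbered 48 and 12 of 249 in Dnmt3a, 4 and 24 of 71 in Dnmt3b and 32 and 29 of 329 in the other 3 genes, against 9.6% and 9.01% of all windows. Windows of 20 sites gave 13 and 0 of 62, 0 and 9 of 19, and 1 and 0 of 84 (2.14% and 2.02%). At 3-fold the counts were 19 and 1 of 126, 0 and 14 of 39, and 0 and 1 of 166 (1.12% and 0.945%). Scaling by the chromosome median gave 25 and 4, 1 and 16, and 6 and 5 (4.43% and 6.14%). Counts and levels of sites with excess reads stayed within their limits under both other rules.

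No paired analysis was possible because each line was taken as 1 library and the values carry no run numbers. Median coverage of 9, 8 and 16 reads limits single sites, and the knockout is known only where it had at least 10 reads.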
